A study of Mus musculus with 10 samples.

Results

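The cytosolic ribosomal protein genes encode the proteins of the large (Rpl) and small (Rps) subunits of the ribosome that translates nuclear-encoded messages. They were taken by symbol: Rpl or Rps followed by a number and at most a, l or x, plus Rpsa and the stalk genes Rplp0, Rplp1 and Rplp2. Pseudogenes were left out. This gave 80 genes of 29893 in the series, 49 of the large and 31 of the small subunit. The naming rule itself used no measured value, but the set was chosen with earlier results of these data known.

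The libraries came from neutrophils and from CCR2+ monocytes sorted out of the lungs of NOD/scid mice, an immunodeficient strain, at the end point of growth of a breast tumour. The tumour was either HCl-001 (TN1, described as highly metastatic) or HCl-002 (TN2, low metastatic). All groups therefore come from tumour-bearing mice of this strain. The 4 groups were neutrophils TN1 (n = 2), neutrophils TN2 (n = 3), monocytes TN1 (n = 2) and monocytes TN2 (n = 3), and every tag (tag_191 and tag_482 for TN1, then tag_367, tag_706 and tag_1341 for TN2) occurs once in each cell type. Where values of a cell type are listed below, they follow that order of tags. Neither the age of the mice nor whether the tags are separate animals is given in the sources used here, so p-values measure the spread between these samples.

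Ribosomal proteins are made in near-equal numbers, since each ribosome holds a single copy of most of them. Their messages share a run of pyrimidines at the 5′ end (the terminal oligopyrimidine, or TOP, motif), through which the kinase mTOR and the protein LARP1 control their translation. Mature neutrophils are short-lived cells that leave the bone marrow after most of their granule proteins have been made, whereas blood-derived monocytes can go on to become macrophages.

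Libraries held 7239220 to 11311400 estimated counts. The neutrophil markers followed the sort: the 12 neutrophil markers summed to 85631 to 125777 CPM (counts scaled to library size with TMM, trimmed mean of M values) in neutrophils and 1361 to 3283 in monocytes. Ccr2, the receptor used for the monocyte sort, was at 226 to 868 CPM in monocytes and 3.52 to 78.5 in neutrophils. The 12 monocyte markers as a whole did not separate the cell types (4107 to 8794 CPM in neutrophils, 4336 to 8511 in monocytes): 5 of them were higher in all monocyte libraries, and 1, Nr4a1, was lower (541 to 1604 CPM against 2925 to 6648). Neutrophil library TN2 tag_1341 carried more monocyte-marker RNA than the other neutrophil libraries, with F13a1 at 177 CPM against 0.572 to 6.31. Monocyte library TN2 tag_706 had the most endothelial and stromal marker RNA (1536 and 1264 CPM). Both tag_482 libraries had a high share of mitochondrially encoded TPM (3.0% in neutrophils and 19.9% in monocytes, against at most 0.813% and 5.82% in the others).

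The whole set was higher in monocytes. In neutrophils the 80 genes together took 0.672%, 0.818%, 1.03%, 0.891% and 0.808% of the library's TPM (a length-corrected abundance). In monocytes they took 5.18%, 4.34%, 6.15%, 4.79% and 3.86%. The lowest monocyte library lay above the highest neutrophil library, and the mean was 5.77-fold higher (4.86% ± 0.873 against 0.843% ± 0.130, SD, n = 5 each). As a share of estimated counts the means were 2.13% ± 0.429 and 0.343% ± 0.0571. In bulk RNA, fewer cells of a type and less of an RNA per cell cannot be told apart, and total RNA per cell was not measured.

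**Figure D1:**
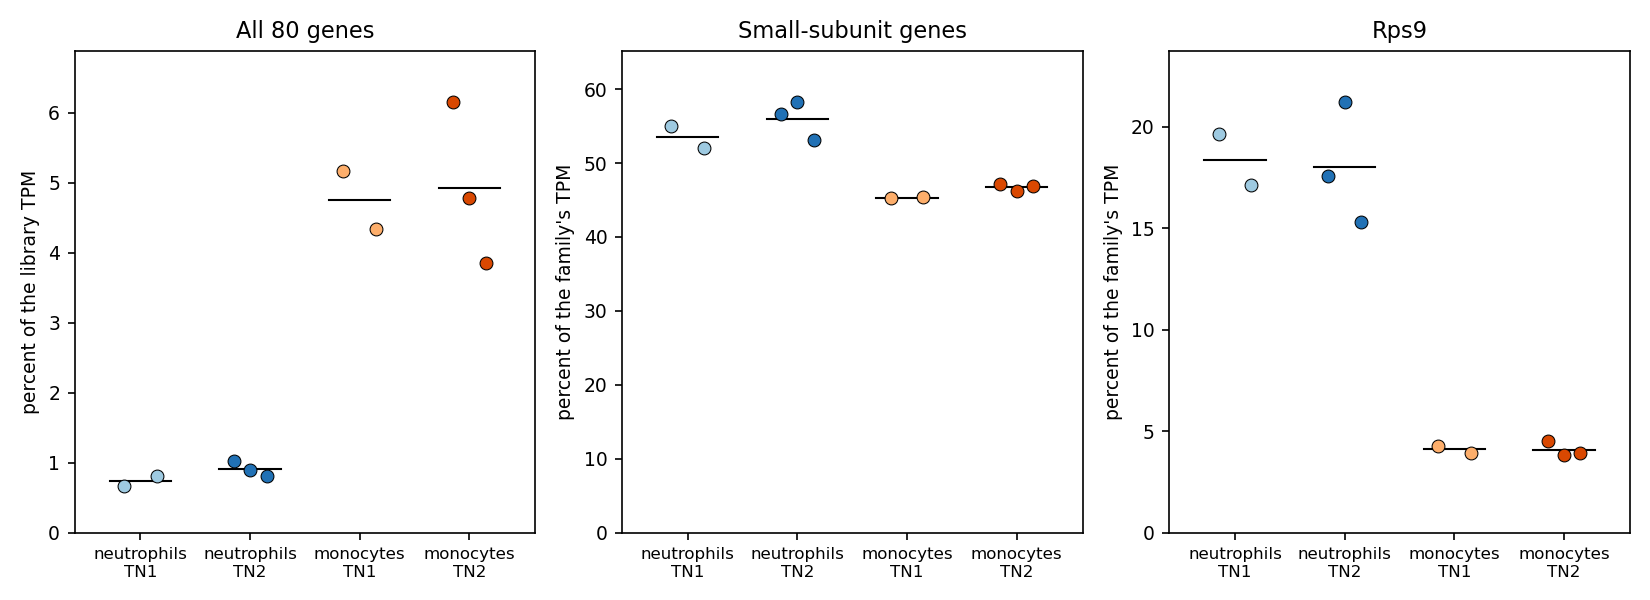
Share of library TPM taken by all 80 genes (left), and share of the set's own TPM taken by small-subunit genes (middle) and by Rps9 (right), as points per library (y axes in percent, from 0) with group means as lines. The 5 monocyte libraries lie between 3.86% and 6.15% on the left, above the neutrophil libraries at 0.672% to 1.03%, whereas Rps9 takes 15.3% to 21.2% of the set in neutrophils and 3.85% to 4.54% in monocytes.

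Gene by gene, 69 of 77 tested members were higher in monocytes and none was lower (edgeR quasi-likelihood test, adjusted p under 0.05). The same call was made for 15.5% of all 13384 genes, and a lower call for 12.4%. The difference was above 0 in 73 members and in 58.9% of all genes. The median log2 difference of the members was 2.19, against 0.46 for all genes tested, with the middle part of the members between 1.77 and 2.51 (quartiles). The large subunit had 41 of 47 genes called with a median of 2.19, and the small subunit 28 of 30 with a median of 2.28. In 70 members the 5 monocyte libraries did not overlap the 5 neutrophil libraries and were higher, a state found in 16.0% of all genes. In 1 member, Rpl3l, they did not overlap in TMM-scaled CPM and were lower, as in 12.6% of all genes, although its estimated counts overlapped. Of the 69 calls, 63 were made under each of the alternative settings in which the gene was tested. With library totals in place of TMM the median of all genes moved to 1.30 and that of the members to 3.02, which left the distance between them at 1.72 against 1.73.

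**Figure D2:**
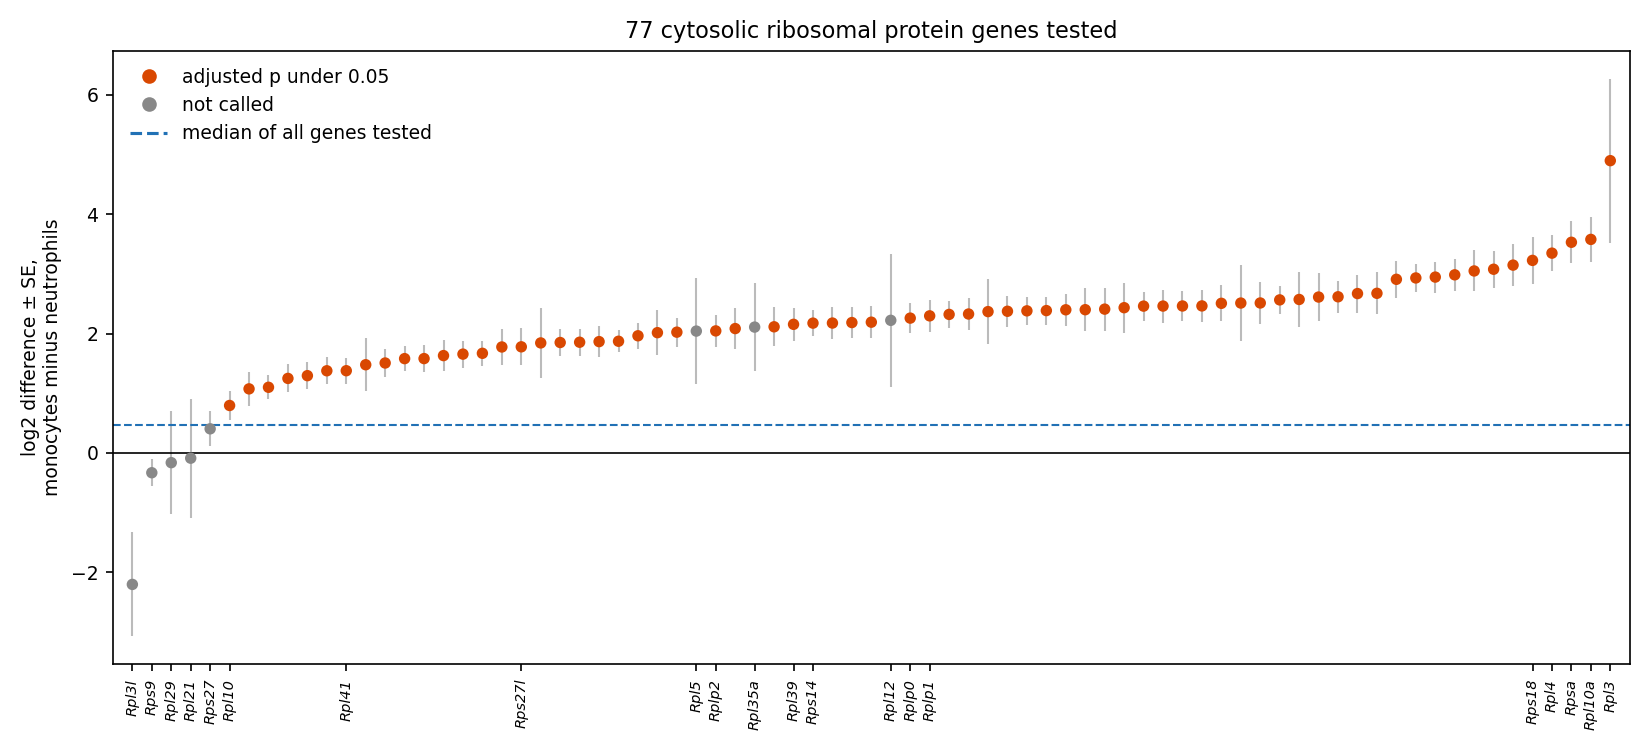
Log2 difference, monocytes minus neutrophils, of the 77 genes tested, in ascending order (points with SE bars; only some genes are labelled), orange where the adjusted p was under 0.05. Most genes lie near the members' median of 2.19, Rps9 and Rps27 lie at or under the median of all genes (dashed line, 0.46), and Rpl3 and Rpl3l rest on few counts.

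The smallest p belonged to Rpl13, a large-subunit protein (chromosome 8, 123102350 to 123105244, plus strand, GRCm38). It stood at 59.8, 87.9, 93.1, 84.6 and 111 CPM in neutrophils. In monocytes it was at 750, 724, 745, 510 and 430 CPM. The groups were far apart, with the 2 lowest monocyte values in TN2 tag_706 and TN2 tag_1341 (log2 difference 2.93 ± 0.24 SE, adjusted p = 7.97e-05). Rpl19, Rpl14, Rpl4, Rps15a, Rpl37a, Rps3, Rps23 and Rps26 followed, with log2 differences of 1.87 (Rps3) to 3.35 (Rpl4).

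Rpl4, a large-subunit protein (chromosome 9, 64173375 to 64178666, plus strand), rose by more than any of these. Its neutrophil values were 57.7, 84.8, 80.8, 65.7 and 138 CPM. Its monocyte values were 963, 987, 958, 665 and 525 CPM. The highest neutrophil value was that of TN2 tag_1341, the library with the most monocyte-marker RNA, whose part in this value was not tested (log2 difference 3.35 ± 0.30, adjusted p = 0.000104).

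Rpsa, a small-subunit protein that is also known as the laminin receptor (chromosome 9, 120127689 to 120132369, plus strand), showed the largest difference among the small-subunit genes tested. Neutrophils had 31.4, 44.2, 66.9, 42.2 and 91.0 CPM. Monocytes had 711, 612, 794, 401 and 326 CPM, 11.5-fold above them in the fit (log2 difference 3.53 ± 0.35, adjusted p = 0.000146). Rpl10a, of the large subunit, rose by a like amount from a low level (9.69 ± 6.18 to 90.7 ± 24.9 CPM, SD, n = 5 each, log2 difference 3.58 ± 0.38, adjusted p = 0.000188). Rps18 did so too (6.95 ± 2.80 to 62.6 ± 13.8 CPM, log2 difference 3.22 ± 0.39, adjusted p = 0.000363), although only 33.3% of the counts on Rps18 and its near-identical copies lay on Rps18 itself. For Rpl10a, as for Rps12 and Rps24, no transcript annotated as the main (principal) one was quantified. The level of Rpl10a may therefore be incomplete.

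The acidic stalk, which recruits the elongation factors to the ribosome, moved with the rest. Rplp0 was at 176, 243, 182, 223 and 273 CPM in neutrophils. It was at 1237, 989, 1317, 791 and 814 CPM in monocytes (log2 difference 2.26 ± 0.24, adjusted p = 0.000227). Rplp1 and Rplp2 rose by 2.30 ± 0.27 and 2.04 ± 0.26 (adjusted p = 0.000317 and 0.000492). The 3 stalk genes took 4.67% to 5.74% of the set's TPM in neutrophils and 5.81% to 7.45% in monocytes.

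Rps9 was the exception among the abundant genes. This small-subunit protein (chromosome 7, 3703993 to 3706897, plus strand) stood at 835, 894, 1023, 1292 and 959 CPM in neutrophils. In monocytes it stood at 885, 817, 998, 573 and 531 CPM. The cell types overlapped (log2 difference -0.33 ± 0.23, adjusted p = 0.302), and no setting of 25 called it. Its sign depended on the scaling: 4 settings, those with library totals and with TPM, put it above 0, up to 0.50. Per length it was among the 5 genes with the highest mean TPM, together with Rpl41, Rps27, Rplp0 and Rps14, and it took 18.2% ± 2.28 of the set's TPM in neutrophils against 4.10% ± 0.294 in monocytes (SD, n = 5 each). The TPM rank of Rps27 rests on a short effective length, 38.1 to 48.8 bases.

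The reads of Rps9 were not shared with other copies. No other matched transcript reached the similarity used here (at least 50% of its 31-base words found in a member's coding transcripts), and a single one of its 10 transcripts held 86.2% to 92.4% of its counts in every library. The balance between the subunits differed with and without Rps9. Small-subunit genes took 52.0% to 58.2% of the set's TPM in neutrophils and 45.3% to 47.2% in monocytes, but without Rps9 these shares were 42.0% to 47.4% and 42.8% to 44.8%, which overlap. On counts without Rps9 they were 33.3% to 37.9% and 37.0% to 37.7%. Neutrophil TN2 tag_367 held the highest of these, and the other neutrophil libraries lay below all monocyte libraries.

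Rps27, a zinc-finger protein of the small subunit, was the other well-counted gene without a call. It stood at 25.5, 23.2, 40.4, 45.8 and 30.2 CPM in neutrophils and at 40.1, 32, 59.4, 43.5 and 34.8 CPM in monocytes. These ranges overlap (log2 difference 0.40 ± 0.29, adjusted p = 0.324), although library totals and the TPM fits called it higher in monocytes (log2 difference 1.24, adjusted p = 0.0155 with library totals). Only 10.5% of the counts on Rps27 and its copies lay on Rps27. Most lay on Rps27rt, an intronless protein-coding copy, at 314 ± 58.3 CPM in neutrophils and 363 ± 95.3 in monocytes (log2 difference 0.23 ± 0.20, adjusted p = 0.414). Adding the copies to Rps27 left it without a call (0.26, adjusted p = 0.352).

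**Figure D3:**
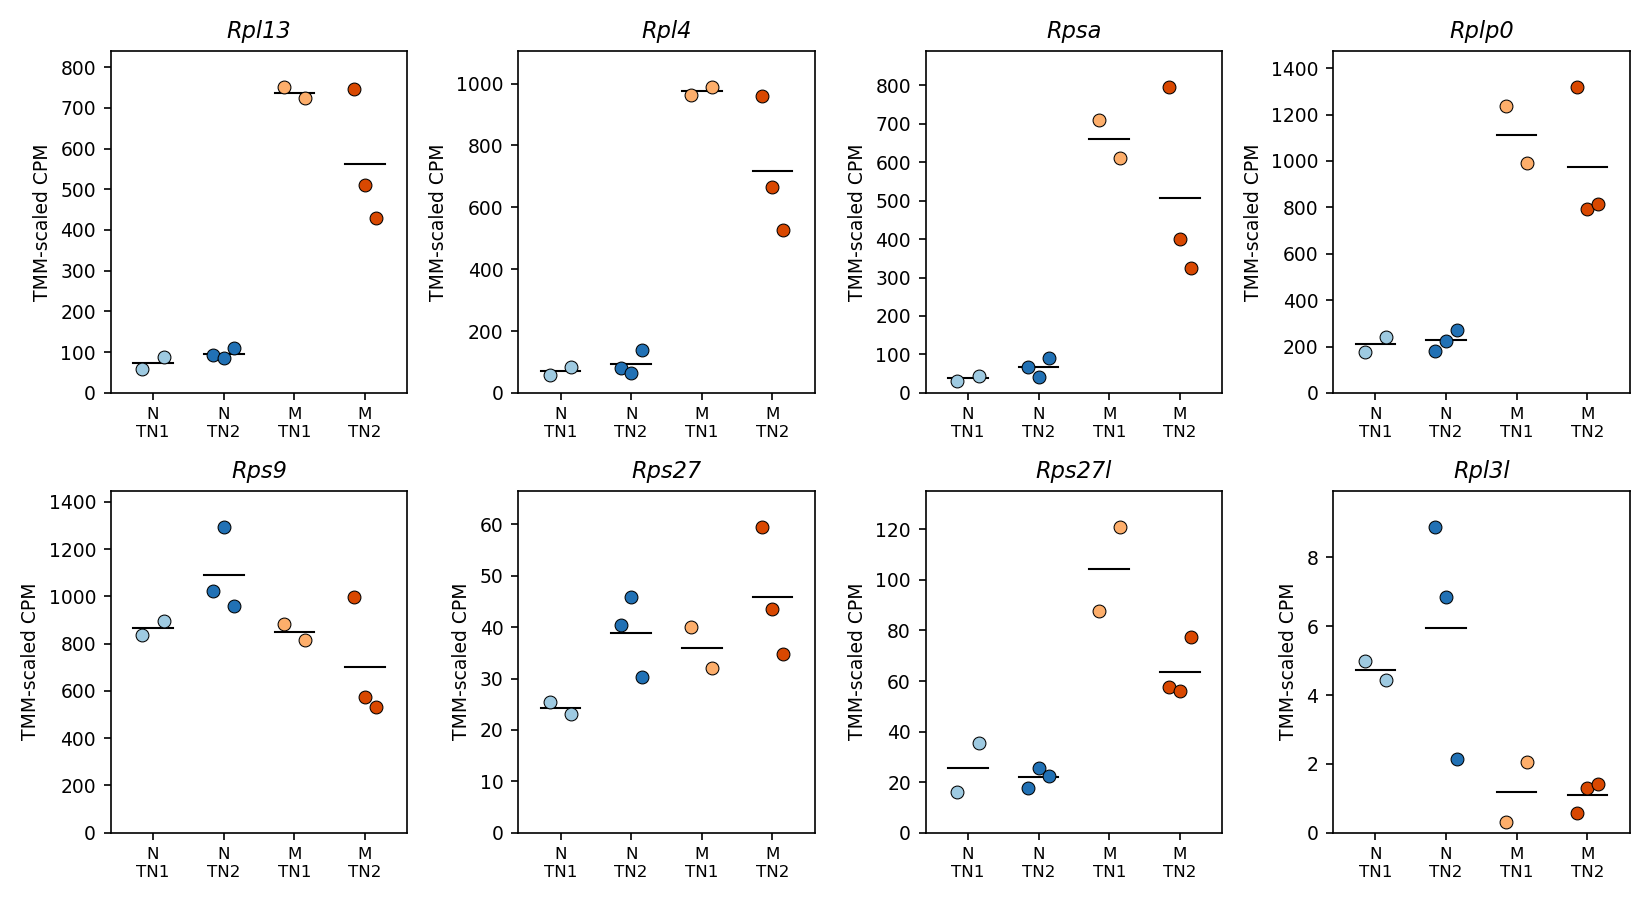
CPM per library (y axis, linear from 0, TMM-scaled) of 8 genes in neutrophils (N) and monocytes (M) of each tumour group, with group means as lines. Rpl13, Rpl4, Rpsa and Rplp0 show separate cell types, Rps9 and Rps27 overlapping ones, and Rpl3l is at or under 8.87 CPM throughout.

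The sequences at the start sites of Rps9 and Rps27 are shown beside those of 3 genes that differed strongly, so that their pyrimidine runs can be compared. Each runs from 60 bases before to 20 after the RefSeq start (GRCm38.p6), 5′ to 3′ on the gene's strand, and capitals mark the longest pyrimidine run within 20 bases of the start.
Rps9: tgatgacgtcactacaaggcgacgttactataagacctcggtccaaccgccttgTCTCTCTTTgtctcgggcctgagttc
Rps27: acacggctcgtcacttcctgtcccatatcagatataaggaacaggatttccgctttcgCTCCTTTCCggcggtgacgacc
Rpl13: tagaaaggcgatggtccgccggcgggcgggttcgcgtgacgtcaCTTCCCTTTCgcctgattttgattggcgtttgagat
Rpl4: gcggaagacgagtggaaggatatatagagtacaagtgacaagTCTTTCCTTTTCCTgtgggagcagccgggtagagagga
Rpsa: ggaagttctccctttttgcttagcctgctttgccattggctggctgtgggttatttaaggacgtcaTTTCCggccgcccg
They lie at chr7:3703981-3704060 (plus), chr3:90213629-90213708 (minus), chr8:123102290-123102369 (plus), chr9:64173327-64173406 (plus) and chr9:120127706-120127785 (plus).

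The marked run was 9 bases long in Rps9 and in Rps27, 10 in Rpl13, 14 in Rpl4 and 5 in Rpsa. It began 6 bases before the RefSeq start in Rps9, 2 in Rps27, 16 in Rpl13 and 18 in Rpl4, and at base 7 after it in Rpsa. In Rpl13 and Rpl4 it thus ended before the annotated message, so these lengths do not compare TOP motifs. RefSeq windows were matched for 60 of the 80 members. The median longest run was 7 bases in these and 5 over all 27025 symbols, and a run of at least 8 bases stood in 48.3% against 18.4%. Within 250 bases before to 50 after the start, on either strand, CCGGAAG (the core bound by ETS factors such as GABP) was found in 41.7% of members and 9.93% of all symbols. CTTTCC was found in 53.3% and 29.3%, and GGGCGG in 60% and 38.2%. These are matches of letters and not shown to be sites.

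Of the remaining members without a call, Rpl5, Rpl35a and Rpl12 had log2 differences of 2.04, 2.11 and 2.22 with adjusted p of 0.111, 0.0588 and 0.160, and at most 573 counts over all 10 libraries. With copies added Rpl5 was higher by 2.81 (adjusted p = 0.000162) and Rpl12 by 3.16 (adjusted p = 0.000349), and Rpl35a stayed without a call (1.99, adjusted p = 0.0669). Rpl29 (0.951 ± 0.533 against 0.903 ± 0.366 CPM) and Rpl21 (3.93 ± 1.86 against 3.71 ± 3.41 CPM) had low values in both cell types. They have 10 and 15 copies, which held 20.8 and 83.8 counts over all 10 libraries, against 89.8 and 366 on the genes themselves. How the reads were divided between gene and copies was not tested. With copies added both stayed without a call (0.18 and 0.02, adjusted p = 0.896 and 0.999). In 10 members less than 50% of the counts of the gene and its copies lay on the gene: Rps12, Rpl5, Rpl12, Rps27, Rpl27a, Rpl27, Rps7, Rpl30, Rps18 and Rpl10. Rps12 itself had 0 counts and was not tested, but with its copies added it was higher in monocytes (log2 difference 1.81, adjusted p = 0.00201). Rpl10 rose by 0.80 ± 0.25 (adjusted p = 0.0371), a call lost in 12 settings, and by 1.54 with its copies added (adjusted p = 0.000813). With all copies added, 71 of 78 members tested were higher.

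The set holds 4 paralogs of other members. Rps27l, a p53 target, stood at 16.1, 35.3, 17.7, 25.5 and 22.6 CPM in neutrophils and at 87.9, 121, 57.6, 56.0 and 77.3 CPM in monocytes, without overlap (log2 difference 1.78 ± 0.31, adjusted p = 0.00250). Its share of the TPM of Rps27l and Rps27 was 10.5% ± 5.69 in neutrophils and 23.0% ± 10.5 in monocytes (SD, n = 5 each; exact two-sided permutation test, p = 0.0476, adjusted over 2 pairs 0.0476, higher in monocytes in 5 of 5 tags). With 1 library left out p was 0.0238 to 0.103. The call was lost without neutrophil TN1 tag_191, any neutrophil TN2 library, either monocyte TN1 library or monocyte TN2 tag_1341. With Rps27rt in the denominator and counts in place of TPM, the share was 5.16% to 8.06% in neutrophils and 13.1% to 20.4% in monocytes.

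Rpl3l, the striated-muscle paralog of Rpl3, went the other way at a low level. It had 39, 31, 70, 51 and 14 estimated counts in neutrophils. In monocytes it had 3, 17, 8, 19 and 18. These counts overlap, with 14 in neutrophil TN2 tag_1341 against 19 in monocyte TN2 tag_706. In TMM-scaled CPM neutrophils were higher without overlap, so this separation depends on the scaling. The edgeR test made no call (log2 difference -2.20 ± 0.87, adjusted p = 0.0866), and DESeq2 did (-2.19, adjusted p = 0.0120). Rpl3, the broadly expressed partner, had 0 to 3.54 counts per neutrophil library and 7.78 to 35.7 per monocyte library (log2 difference 4.90 ± 1.37, adjusted p = 0.0281, which depends on the fit at such counts). The call was lost in 10 settings, and with copies added the difference was 1.43 (adjusted p = 0.399). The Rpl3l share of the pair was 96.3% ± 6.64 in neutrophils and 44.7% ± 20.3 in monocytes (exact two-sided permutation test, p = 0.00794, the smallest these group sizes allow, adjusted p = 0.0159, lower in monocytes in 5 of 5 tags). The low Rpl3 counts limit the precision of this share. Rpl3 held 112.5 counts over all 10 libraries, against 49721 for Rpl4, and shared 87.2% of its 31-base words with transcripts of other genes. Whether its reads were captured in full was not tested, so the share may not give the true ratio of the pair. Rpl10l and Rpl39l, testis-type paralogs, had 1 count each over all libraries, whereas Rpl39 rose by 2.15 ± 0.27 (adjusted p = 0.000462).

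Other genes of the translation machinery were counted from lists, to be read against the 15.5% of all genes called higher, the 12.4% called lower and the median of 0.46. Of 6 ribosome components outside the naming rule, 4 were higher in monocytes and none lower. Rack1, a scaffold on the small subunit, was at 32.3 ± 12.2 CPM in neutrophils and 328 ± 96.6 in monocytes (log2 difference 3.49 ± 0.30, adjusted p = 8.62e-05). Fau, a ubiquitin-like fusion with a small-subunit protein, was at 91.4 ± 15.3 and 72.6 ± 14.4 CPM (log2 difference -0.33 ± 0.24, adjusted p = 0.331). Of 16 elongation factors and other TOP messages, 14 were higher and none lower, with a median of 2.03. Eef1a1, which brings aminoacyl-tRNA to the ribosome, rose from 763 ± 156 to 3588 ± 754 CPM (log2 difference 2.31 ± 0.22, adjusted p = 0.000126). Tpt1, itself a TOP message, did not pass the test (425 ± 83.0 against 402 ± 70.2 CPM, adjusted p = 0.940).

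Of 23 initiation factors, 14 were higher and 3 lower (median 1.56), the lower share being near the 12.4% of all genes. Eif1, which helps select the start codon, was at 2681 ± 739 CPM in neutrophils and 676 ± 77.4 in monocytes (log2 difference -1.93 ± 0.24, adjusted p = 0.000411), and Eif4a2 and Eif5 were the other lower ones (-0.92 and -0.77, adjusted p = 0.0245 and 0.0268). With library totals Eif4a2 and Eif5 lost the call, and Eif5 stood at 0.07. Of 40 ribosome biogenesis genes 17 were higher and 2 lower (median 1.79, all genes 0.46). The lower ones were Sbds, a 60S maturation factor, and Nop2 (-1.05 and -1.47, adjusted p = 0.0191 and 0.0488), and with library totals both lost the call. Of 78 mitochondrial ribosomal protein genes, 45 were higher and 1 lower (median 2.20).

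Of 18 tested genes for ribosomal protein transcription and mTOR signalling, 3 were higher and 3 lower (median 0.23), which is near the shares of all genes (15.5% and 12.4%). Myc, a transcription factor that drives ribosome genes, was at 2.14 ± 2.79 CPM in neutrophils and 58.4 ± 23.1 in monocytes (log2 difference 5.58 ± 0.93, adjusted p = 0.00194), and Larp1 and Rptor, a subunit of mTORC1, were the other higher ones (2.93 and 1.90, adjusted p = 0.0137 and 0.0126). Gabpb1, a subunit of the GABP factor, was lower in monocytes (171 ± 60.1 to 23.9 ± 2.69 CPM, log2 difference -2.87 ± 0.32, adjusted p = 0.000246), as were Max and Eif4ebp1, an inhibitor of cap-dependent translation (-3.47 and -1.45, adjusted p = 0.0139 and 0.00137). Of 12 genes for ribosome quality control and turnover (median 1.86, all genes 0.46), 4 were higher, against 15.5% of all genes, and 1, Mdm2, the ubiquitin ligase of p53, lower (-0.61, adjusted p = 0.0317), a direction that turned to 0.23 with library totals. Eif1, Gabpb1, Max and Eif4ebp1 stayed lower with an adjusted p under 0.05 in that scaling.

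Between the tumours no member was called in either cell type. In neutrophils, TN2 against TN1, 0 of 77 passed the edgeR test, as did 0.0% of all genes. With DESeq2 0 members passed, against 78 higher and 9 lower of all 13384 genes, and with limma on log2(TPM + 1) 0 members and 1 gene in all. Unadjusted p was under 0.05 for 5 members and for 4.67% of all genes. These 5 were Rpl10a, Rps15a, Rps25, Rpl19 and Rpl27a. The log2 difference was above 0 in 69 members, against 59.7% of all genes, and the median was 0.37 against 0.22. In 28 members the TN2 libraries lay above both TN1 libraries, a state found in 11.8% of all genes, and in 1, Rpl21, below both, as in 5.91% of all genes. The smallest p was that of Rpl10a (3.33 and 5.86 CPM in TN1, 11.3, 8.59 and 19.4 CPM in TN2, log2 difference 1.51 ± 0.51, adjusted p = 0.943).

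The neutrophil pattern leaned on the TN1 libraries. Without TN1 tag_191 the median was 0.21 and that of all genes 0.71, so the order of these medians turned. That fit has 1 neutrophil TN1 library, which is assumed to vary like the other groups, and it called 484 genes higher and 24 lower. Rps2, a small-subunit protein, was the 1 member among them (17.3 and 1.86 CPM in TN1, 25, 17.7 and 37.2 in TN2, log2 difference 3.84 ± 0.70, adjusted p = 0.0246). Only 55.6% of the counts on Rps2 and its 13 copies lay on Rps2 itself. Its low value was that of TN1 tag_482, the library where the copy Gm6139 held all of its 31.2 counts. How the reads were divided among these copies was not tested. With all libraries kept, Rps2 differed by 1.47 ± 0.76, and by 1.30 ± 0.58 with copies added, without a call. Without TN1 tag_482 the median was 0.59 and that of all genes 0.15. The highest Rpl10a and Rps2 values were those of TN2 tag_1341, the library with monocyte-marker RNA. Without it the members' median was 0.31. The 10 immature-granule markers, all detected in neutrophils, also varied, with sums of 6493 and 17252 CPM in TN1 and 9702, 1649 and 5119 in TN2 (6196, 15594, 8884, 1475 and 3118 without Chil3). Their part in the result was not tested.

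In monocytes the direction was the opposite. Again 0 of 77 members passed, as did 0.0% of all genes. With DESeq2 0 members passed, against 17 higher and 5 lower of all genes, and with limma on log2(TPM + 1) 0 of either. Unadjusted p was under 0.05 for 0 members and 2.83% of all genes. The log2 difference was below 0 in 72 members, whereas 59.8% of all genes lay above 0, with a median of -0.37 against 0.22. In 18 members the TN2 libraries lay below both TN1 libraries, which holds for 7.73% of all genes, and in 1, Rpl29, above both, as in 12.4%. On log2(TPM + 1) only 46 members lay below 0 (median -0.02, all genes 0.39), so the difference from 0 was smaller in that scaling.

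Here TN2 tag_367 stood apart from its group. For Rpl13 it had 745 CPM, level with TN1 (750 and 724), whereas TN2 tag_706 and TN2 tag_1341 had 510 and 430. Without TN2 tag_367 the median was -0.75 (all genes 0.07), and 11 members had unadjusted p under 0.05, as did 422 of all 13232 genes, with none under 0.05 after adjustment. The median of all genes moved with the TN1 libraries. With TN1 tag_191 left out it was 0.69 and that of the members -0.41. With TN1 tag_482 left out these were 0.14 and -0.39. Each of these fits has 1 monocyte TN1 library. The summed level overlapped between tumours, at 5.18% and 4.34% of TPM in TN1 and 6.15%, 4.79% and 3.86% in TN2. Of the 8 alveolar macrophage markers, Chil3 was at 519 and 73.8 CPM in TN1 and at 1672, 3931 and 9224 in TN2, while the other 7 summed to 23.1 and 37.4 in TN1 and to 19.6, 311 and 30.2 in TN2, with only TN2 tag_706 apart. The 10 dendritic cell markers summed to 348 and 1346 CPM in TN1 and to 305, 293 and 172 in TN2, with TN1 tag_482 far above the rest. These sums did not overlap, but of the single genes only Cd209a and Clec10a were without overlap. The others overlapped, among them Ccr7 (110 and 544 CPM in TN1, 69.6, 126 and 74.9 in TN2). The part of these markers in the result was not tested.

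The tumour effect in monocytes minus that in neutrophils was below 0 in 74 of 77 members and above 0 in 3, against 49.0% of all genes above 0, with a median of -0.73 against -0.03 for all genes. None passed (edgeR, 0.0% of all genes, 7 members with unadjusted p under 0.05 against 3.53% of all genes). With DESeq2 0 members passed, against 4 higher and 17 lower of all genes, and 11 members had unadjusted p under 0.05, as did 804 of all 13384 genes. Leaving out monocyte library TN1 tag_191, which leaves 1 library in its group, gave a median of -0.67 against 0.69 for all genes. Without neutrophil library TN1 tag_191, which again leaves 1 library in that group, the median was -0.55 against -0.41. Rps2 passed (-3.64, adjusted p = 0.0488), as 1 of 369 genes called lower, with 5 called higher. A difference between the cell types in the tumour effect on these genes was thus not detected with 2 and 3 libraries a group.

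**Figure D4:**
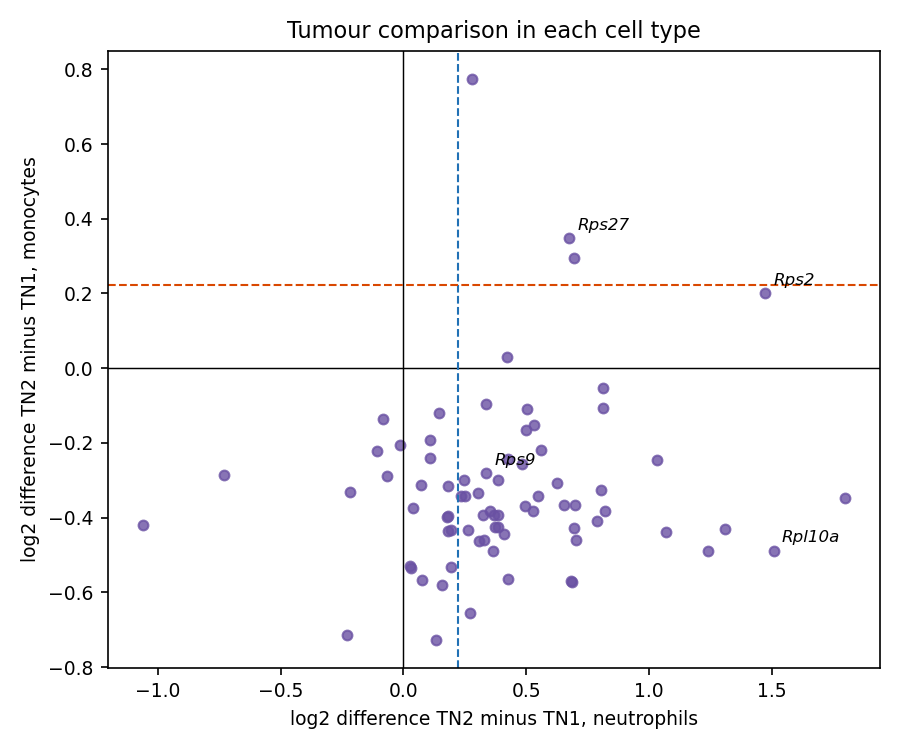
Log2 difference TN2 minus TN1 in neutrophils (x axis) and monocytes (y axis) of 76 of the 77 genes tested, with the medians of all genes as dashed lines (0.22 on both axes). Most points lie right of 0 and below 0, and none passed the test; Rpl3 (4.70 in neutrophils, from at most 3.54 counts a library) is left out.

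The authors' deposited tables of the tumour comparisons list 78 members by gene ID. In the authors' deposited table for monocytes 44 of 75 members with a fold were below 0 and 1 had a raw p under 0.05. In the authors' deposited table for neutrophils 64 of 74 were above 0 and 8 had a raw p under 0.05. Their adjusted p was under 0.05 for 0 members in either table. The same counts over all genes of these tables were not made, so whether the members differ from the other genes there was not tested.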

How the data were processed

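Per the labels' protocols, RNA was amplified by Smart-seq2, and the authors quantified reads with kallisto 0.42.3 on the GRCm38 transcriptome, per the series' design text. The deposited tables give estimated counts and TPM per transcript, plus an effective length (per the file headers). The authors' deposited comparison tables hold log2 means, a log2 fold change, a fold and p-values with and without adjustment from AltAnalyze.

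Transcripts were summed to genes with GENCODE M21 (81839 of 85276 matched). Counts were rounded and fitted with edgeR 4.0.16 in R 4.3.3 (filterByExpr, TMM, 4 groups, quasi-likelihood F test, 6 residual degrees of freedom), adjusted by Benjamini-Hochberg over 13384 genes with a threshold of 0.05. The biological coefficient of variation was 0.887. The fit was tested on simulated data. DESeq2 1.42.0 and limma 3.58.1 were alternatives. Copies are the 241 transcripts of other genes that share at least 50% of their 31-base words with a member. PCR copies remain in the counts.

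Members and gene lists were chosen with earlier results of these data known. Named genes were all members called where 15 or fewer were, otherwise the 10 smallest p, the 5 largest and 5 smallest differences, all below 0, the 5 highest TPM, the stalk, Rpsa, paralogs and untested members; Rpl5, Rpl35a, Rpl12, Rps2 and the 5 with unadjusted p under 0.05 were added after their values were seen. Some items are not reported here.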

Additional observations from a re-analysis of the deposited data

How the results depend on the processing

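The calls of members higher in monocytes stood at 63 to 73 over 14 alternatives in normalization, filter, tool, gene definition or the replicate block, or without both tag_482 libraries, and at 63 to 68 with 1 library left out, against 69. The summed level was 5.60-fold to 6.22-fold higher in monocytes over 6 alternatives. Tumour calls were 0 in neutrophils, in monocytes and for their difference under each alternative, except that leaving out 1 library gave 0 to 1 in neutrophils and 0 to 1 for the difference, the 1 being Rps2 without neutrophil TN1 tag_191. The members' neutrophil median relative to all genes was -0.50 (without that library) to 0.44 (without TN1 tag_482) with 1 library left out. For monocytes minus neutrophils it was 1.18 to 2.60 over all alternatives. Libraries share only a tag number: same-tag deviations from the group mean correlated at 0.09 in TN1 and at -0.08, 0.38 and 0.35 in TN2. The TN1 tags give a single value, since 2 libraries deviate from their mean by mirror amounts. The highest correlation with another tag of TN2 was 0.179, -0.235 and 0.228, so tag_367 was not closest to its own tag. With the tag as replicate block 64 members were called. In an exact permutation by sign flips within tags (the pairing), the paralog differences of 12.5 and -51.6 percentage points had p = 0.0625, the smallest possible. The Rps27l share difference was 8.69 to 15.4 points with 1 library left out, and 22.8 on counts. The added copies and the effective-length minimum of 100 bases were chosen after seeing the data. Low counts limit Rpl3, Rpl3l, Rpl21 and Rpl29, and 2 libraries per TN1 group limit the tumour comparisons.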

Other observations

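Pooled over the members, intron-retaining transcripts held a larger share of the counts in neutrophils. Transcripts annotated as retained introns held 3.78%, 2.45%, 3.43%, 1.92% and 1.78% of the members' counts in neutrophils and 1.06%, 1.31%, 0.879%, 1.45% and 1.11% in monocytes. The ranges did not overlap. The mix of members differed too, with Rps9 at 15.3% to 21.2% of the set's TPM in neutrophils and 3.85% to 4.54% in monocytes. No share per gene or without Rps9 is given, so the part of this mix was not tested.

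The order of the members by level was much the same in both cell types. Across the 77 tested genes the Spearman coefficient between mean log2(TPM + 1) in neutrophils and in monocytes was 0.909, a description across genes, which share libraries and transcript lengths. Within groups, replicates correlated at 0.925 to 0.991 over the members and at 0.777 to 0.926 over all genes tested.

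A pseudogene copy of Rps28, Gm10443, was listed at 49119 TPM in monocyte library TN1 tag_191, 4.91% of that library, from 559 estimated counts on an effective length of 1.68 bases. Rpl38-ps2 was at 7143 TPM there from 227 counts on 4.68 bases. TPM totals of that library carry these values, and counts do not.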
